A study of Mus musculus with 8 samples.

Results

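TRBV31, the V segment formerly called Vβ14, is the one V gene of the mouse T cell receptor beta chain locus that lies behind the constant genes and points the other way. T cell receptor beta chains that use it were described here in leukocytes (CD45+) of the brain parenchyma of C57BL/6 mice. Members were all productive TRB contigs, that is assembled beta chain transcripts, whose V segment was called TRBV31. They numbered 200 of 6795 TRB contigs, in 200 of the 6509 cells with a TRB. Receptor libraries came from 5xFAD mice (n = 2) and from 5xFAD;Cxcr6-/- mice (n = 2), which also lack the chemokine receptor CXCR6. Mice of both groups carry the 5xFAD transgenes, neuronally expressed human amyloid precursor protein and presenilin with familial Alzheimer's disease mutations, so no comparison here is with brain free of amyloid. Age, sex and the number of mice behind each library are not given in the sources used here. P-values thus cannot be read as a measure of the spread between mice. In the model fits below (edgeR, DESeq2 and limma), the spread between these libraries is estimated in part over all segments tested together. Expression profiles, which 4 further samples cover, were not used here. Neither the T cell subset of a TRBV31 cell nor the loss of Cxcr6 was therefore checked.

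A beta chain gene is put together in the thymus by joining 1 D segment to 1 J segment, and then a V segment to that DJ unit, with random bases added at both joins. V genes in front of the D segments join by deletion of the DNA in between. TRBV31, in the opposite orientation, joins by inversion, and the DNA in between stays in the chromosome. TRBD1 lies before both J clusters and can join either, whereas TRBD2 lies behind the TRBJ1 cluster and joins TRBJ2 segments. A T cell normally makes 1 beta chain, which pairs with an alpha chain.

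In GENCODE vM21 on GRCm38, Trbv31 (ENSMUSG00000076499.3) is a V gene at chr6:41557691-41558452 on the minus strand. It was the only 1 of 35 annotated Trbv genes and pseudogenes on that strand, and the other 34 were on the plus strand. Its near edge lies 9.34 kb behind the last base of Trbc2 and 24.5 kb behind Trbd1 (chr6:41533201-41533212). Trbv30 (chr6:41281376-41281990), the nearest V gene on the other side, lies 251 kb in front of Trbd1.

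**Figure D1:**
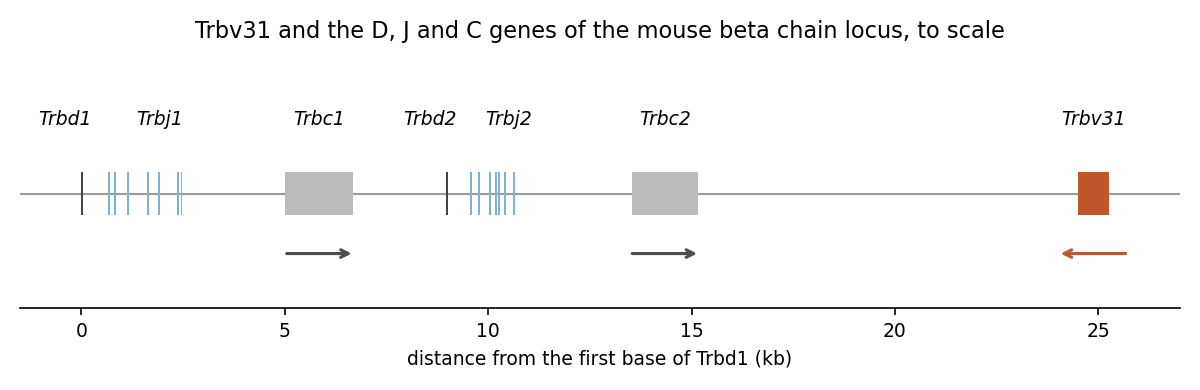
Map of the D, J and C genes and Trbv31 (x axis, kb from the first base of Trbd1, drawn to scale). Boxes are annotated genes and arrows give the orientation of the C genes and Trbv31. Trbv31 stands 9.34 kb behind Trbc2 and points towards it.

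CDR1 and CDR2, receptor contact loops encoded by the V segment itself, had the same bases in all 200 contigs. The choice of members by their V call largely fixes this, and other TRBV were not compared. The germline V end and both D segments are shown because the junctions described below are read against them. The first 2 lines are from the deposited contigs and the others from GENCODE vM21 transcripts, all 5′ to 3′, and capitals mark the bases that tell the D segments apart.

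TRBV31 CDR1: gggaaatcaagccctaac
TRBV31 CDR2: tctattactgttggc
TRBV31 V end from the first codon of the CDR3: tgtgcctggagtct
TRBD1: gggACAGGgggc
TRBD2: gggACTGGgggggc

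This V end sets the start of the CDR3, the loop that contacts peptide. A tryptophan stood at the third CDR3 position in 158 of 165 TRBV31 clone chains and in 0 of 4415 clone chains of other TRBV. A clone chain is a distinct CDR3 nucleotide sequence of a clone, and a clone is a clonotype of the deposited tables with at least 1 TRB. The 165 TRBV31 chains held 162 distinct CDR3 nucleotide sequences, of which 0 occurred in more than 1 library. Of 161 distinct TRBV31 CDR3 amino acid sequences 0 occurred in 2 libraries. Among other TRBV, 24 of 4220 distinct pairs of V segment and CDR3 amino acid sequence did. Sharing was thus rare in all chains, and this count does not set TRBV31 apart.

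TRBV31 was a mid-rank segment in every library, and its share did not separate the genotypes. It held 3.77% of clones (95% Clopper-Pearson interval 2.80 to 4.97) in 5xFAD library 1 and 3.36% (2.50 to 4.40) in 5xFAD library 2. Its share in 5xFAD;Cxcr6-/- was 3.24% (1.93 to 5.08) in library 1 and 4.77% (3.55 to 6.25) in library 2. The 5xFAD;Cxcr6-/- values lay on either side of the 5xFAD values. These shares rest on 48 of 1272, 50 of 1489, 18 of 555 and 49 of 1028 clones, and intervals cover counting error only.

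Averaged by genotype, 3.57% ± 0.294 of 5xFAD clones (SD, n = 2) and 4.0% ± 1.08 of 5xFAD;Cxcr6-/- clones (SD, n = 2) used TRBV31. The difference of 0.439 percentage points was smaller than the spread in 5xFAD;Cxcr6-/- (exact two-sided permutation p = 1.0, where the smallest p these 4 libraries allow is 0.333). In a quasi-likelihood fit (edgeR) of every TRA and TRB segment, TRBV31 had a genotype log2 fold change of 0.23 (SE 0.23, adjusted p = 0.697). That test called 1.32% of 152 segments, TRAV11 and TRAJ18, at an adjusted p under 0.05, the threshold used throughout. Without 5xFAD;Cxcr6-/- library 2 the direction turned, to a log2 fold change of -0.13 and a difference in share of -0.323 percentage points.

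Cells gave the same picture. TRBV31 cells made up 2.77% (2.10 to 3.58) and 2.71% (2.10 to 3.43) of cells with a TRB in the 5xFAD libraries. The values in 5xFAD;Cxcr6-/- were 2.42% (1.44 to 3.79) and 4.6% (3.53 to 5.88). By genotype the cell share averaged 2.74% ± 0.0441 (SD, 5xFAD) and 3.51% ± 1.55 (SD, 5xFAD;Cxcr6-/-), with n = 2 each and an exact two-sided permutation p of 1.0.

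**Figure D2:**
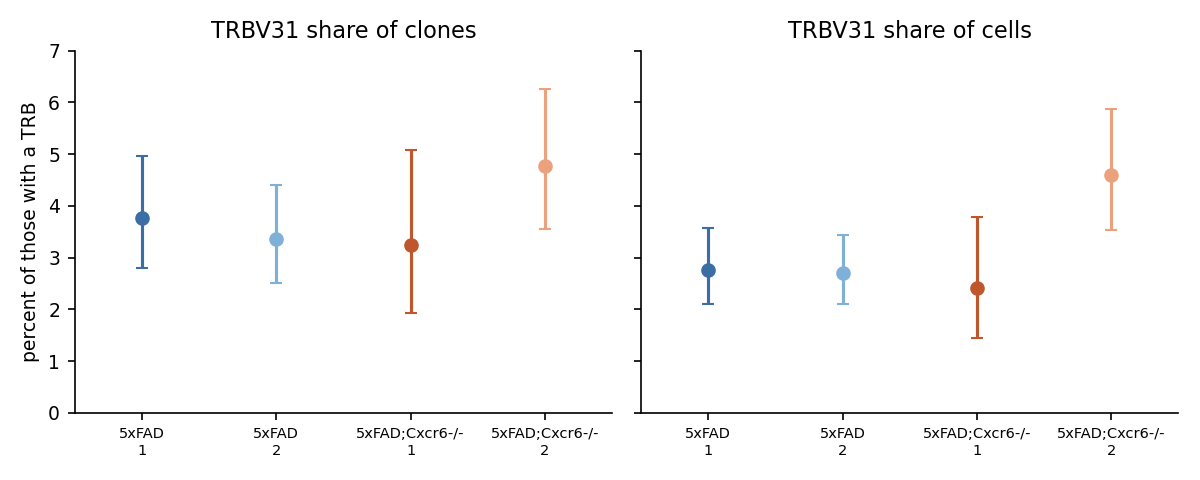
TRBV31 share of clones (left) and of cells (right) with a TRB, in percent, for each library; bars are 95% Clopper-Pearson intervals. 5xFAD;Cxcr6-/- library 2 is highest in both panels, with 4.77% of clones and 4.6% of cells, and the other 5xFAD;Cxcr6-/- library is lowest.

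By mean share of clones TRBV31 ranked 13 of 22 TRBV labels. The segments with the most similar shares over the 4 libraries were TRBV14, TRBV10 and TRBV26, whose absolute differences from TRBV31 summed to 1.29, 2.48 and 2.68 percentage points.

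TRBV31 chains used every TRBJ segment that the other chains used, and joined TRBJ2 in a smaller share, by an amount that did not pass the test. TRBJ2 segments were in 24 of 48, 32 of 50, 10 of 18 and 27 of 49 TRBV31 chains, in the order 5xFAD libraries 1 and 2, then 5xFAD;Cxcr6-/- libraries 1 and 2. As shares these were 50.0%, 64.0%, 55.6% and 55.1%, against 64.1%, 64.5%, 59.8% and 66.0% of chains of other TRBV. The TRBV31 share was below that of the other chains in 4 of 4 libraries, by 0.544 to 14.1 percentage points. A low TRBJ2 share was not particular to TRBV31. With libraries pooled it was 56.4% for TRBV31 and lower in 4 of 21 other TRBV labels. These were TRBV23 (50.0%), TRBV26 (52.7%), TRBV29 (54.1%) and TRBV1 (55.8%).

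In edgeR's quasi-likelihood test with the library as a block, TRBV31 had a log2 ratio of TRBJ2 to TRBJ1 chains of -0.46 (SE 0.28, adjusted p = 0.313). The test called 0.0% of 22 TRBV, and 2 had an unadjusted p under 0.05. DESeq2 called 0 and put TRBV31 at -0.44 (adjusted p = 0.801). Next to TRBV31 in this order were TRBV1 at -0.47 and TRBV30 at -0.34. The difference between genotypes in this ratio was -0.09 (SE 0.55, edgeR adjusted p = 0.943).

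Single J segments scattered widely over the few TRBV31 chains. TRBJ2-5 and TRBJ2-7 led with 22 chains each, followed by TRBJ1-1 with 21. TRBJ1-2 had 17 chains, TRBJ1-4 and TRBJ2-3 had 16 each, TRBJ2-1 had 15 and TRBJ2-4 had 13. TRBJ1-3 had 10, TRBJ2-2 had 5, and TRBJ1-5 and TRBJ1-6 had 4 each. In the other chains TRBJ2-7 led, with 20.8%.

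TRBJ2-7 was in 10.4%, 16%, 5.56% and 16.3% of TRBV31 chains in the 4 libraries, against 21.5%, 21%, 21.2% and 19.2% of the other chains. It was lower with TRBV31 in every library, and the groups did not overlap. Among the 12 TRBJ, TRBJ2-2 was the only other segment without overlap, and all the rest overlapped. TRBJ2-2, with 5 TRBV31 chains in all, was in 4.17%, 2%, 0% and 4.08% of TRBV31 chains. Of the other chains 4.6%, 5.98%, 5% and 5.16% used TRBJ2-2, again without overlap. For TRBJ2-7 edgeR estimated a log2 difference of -0.63 (SE 0.27) with an adjusted p of 0.352. For TRBJ2-2 the edgeR difference was -0.78 (SE 0.73, adjusted p = 0.709). This test over 12 TRBJ, added after the values were seen, called 0.0% of them, with 1 at an unadjusted p under 0.05 and 0 called by DESeq2.

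**Figure D3:**
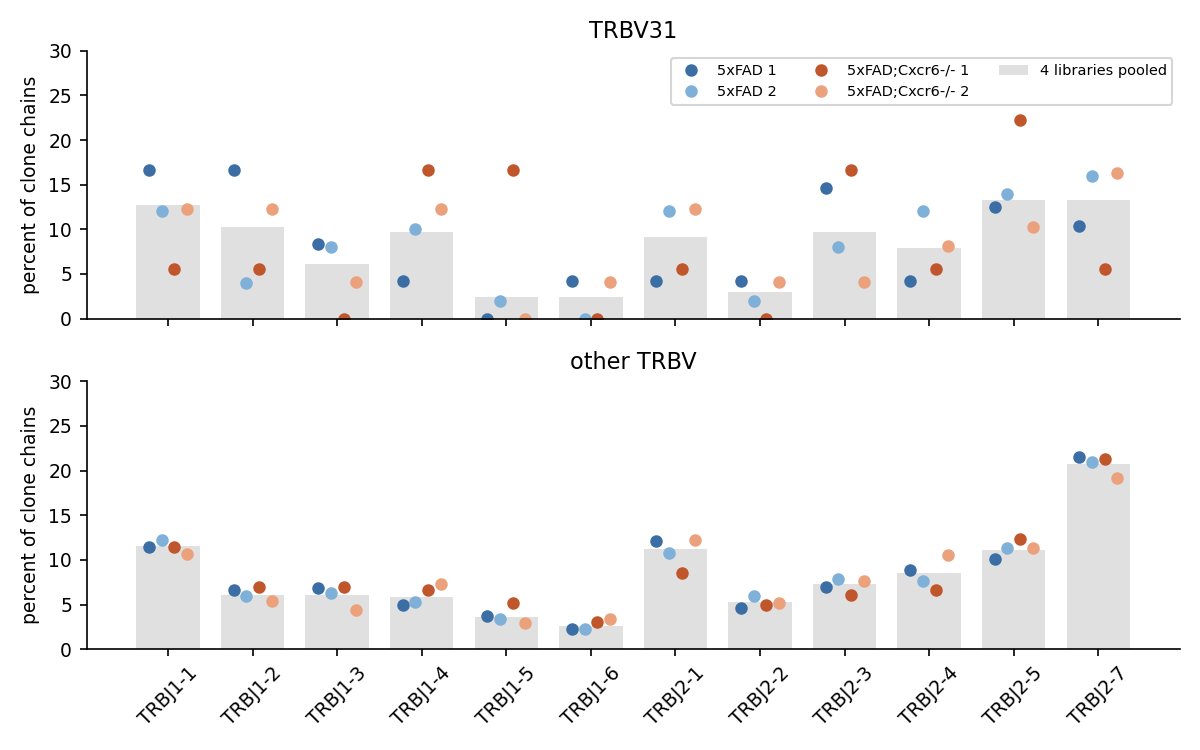
Share of clone chains (y axis, percent) that use each TRBJ segment (x axis), for TRBV31 above and all other TRBV below; points are libraries and bars the 4 libraries pooled. TRBJ2-7 is the tallest bar for other TRBV at 20.8% and stands at 13.3% for TRBV31.

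The constant gene followed the J cluster without exception where it was called. TRBC1 was on 69 of 72 TRBV31 chains with a TRBJ1 segment, and the other 3 had no call. TRBC2 was on all 93 chains with a TRBJ2 segment.

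In TRBV31 chains with a TRBJ2 segment TRBD2 outnumbered TRBD1, and whether their TRBD2 share passed the test against other TRBV depended on how the D was read. In the deposited calls, 17 of 26 TRBV31 chains with a D call were TRBD2 (65.4%), against 335 of 713 of the other chains (47.0%). Per library the TRBV31 share was 57.1%, 66.7%, 50.0% and 83.3%, and that of the other chains 50.0%, 48.6%, 45.3% and 41.5%. TRBV31 was higher in 4 of 4 libraries and had the highest log2 ratio of the 20 TRBV tested, 1.02 (SE 0.48), next to TRBV3 at 1.01. It did not pass the test (edgeR adjusted p = 0.438), which called 5.0% of TRBV, TRBV29. Without 5xFAD;Cxcr6-/- library 2 the ratio was 0.62, and over all chains with a D call, TRBJ1 included, it was 0.43.

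The deposited D calls differed from the junction bases in part of the chains. Of 9 TRBV31 chains with a TRBJ2 segment and a TRBD1 call, 4 held the bases ACTGG of TRBD2 between V and J, and 4 held the bases ACAGG of TRBD1. Among other TRBV labels with a germline end, 48 of 356 such chains held the TRBD2 bases. No D was called in 67 of 93 TRBV31 chains with TRBJ2, and 20 of these held the TRBD2 bases. All 3 chains below were called TRBD1 and hold the TRBD2 bases; lower case marks germline V and J bases and capitals the bases in between.

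5xFAD library 1, clonotype 390: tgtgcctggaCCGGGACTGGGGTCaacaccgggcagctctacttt
5xFAD library 2, clonotype 416: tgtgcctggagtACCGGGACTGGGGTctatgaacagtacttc
5xFAD library 2, clonotype 455: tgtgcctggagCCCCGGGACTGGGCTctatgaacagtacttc

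Read from these bases, a reading chosen after the calls had been seen, 41 of 93 TRBV31 chains with TRBJ2 could be assigned a D. Most chains could not be read and are left out of the shares below. The bases were sought only between the V and J parts. A D base that equals the next germline V base counts as V, so unread chains depend on the V end. Of TRBJ2 chains called TRBD2, 6 of 17 with TRBV31 and 81 of 321 others held neither motif. Of those called TRBD1, 1 of 9 and 76 of 356 held neither. Whether this loss shifts the comparison between TRBV was not tested. Of the 41 read, 35 held the TRBD2 bases (85.4%, 70.8 to 94.4). Of 2716 other chains with TRBJ2, 1020 could be read, and 640 of these held the TRBD2 bases (62.7%, 59.7 to 65.7). By library the TRBV31 share was 90.9%, 93.8%, 57.1% and 85.7%, and that of the other chains 68.6%, 63.3%, 63.6% and 53.6%. TRBV31 was higher in 3 of 4 libraries and lower in 5xFAD;Cxcr6-/- library 1, where 7 chains could be read. With TRBJ1 segments, which TRBD2 does not precede, 23 of 72 TRBV31 chains and 399 of 1540 others could be read. The TRBD2 bases were in 0 of these 23 and in 1 of these 399.

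In the same edgeR test on these readings the log2 ratio of TRBD2 to TRBD1 was 1.64 (SE 0.53, adjusted p = 0.0469), the highest of 19 TRBV, with TRBV12-1 next at 0.94. The test called 10.5% of TRBV, TRBV31 upward and TRBV29 downward. The call was lost with DESeq2 (1.68, adjusted p = 0.494) and in cells with 1 TRB and 1 or 2 TRA (1.37, edgeR adjusted p = 0.299). It was also lost without 5xFAD library 1 (edgeR adjusted p = 0.115), without 5xFAD library 2 (0.487) and without 5xFAD;Cxcr6-/- library 2 (0.34).

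**Figure D4:**
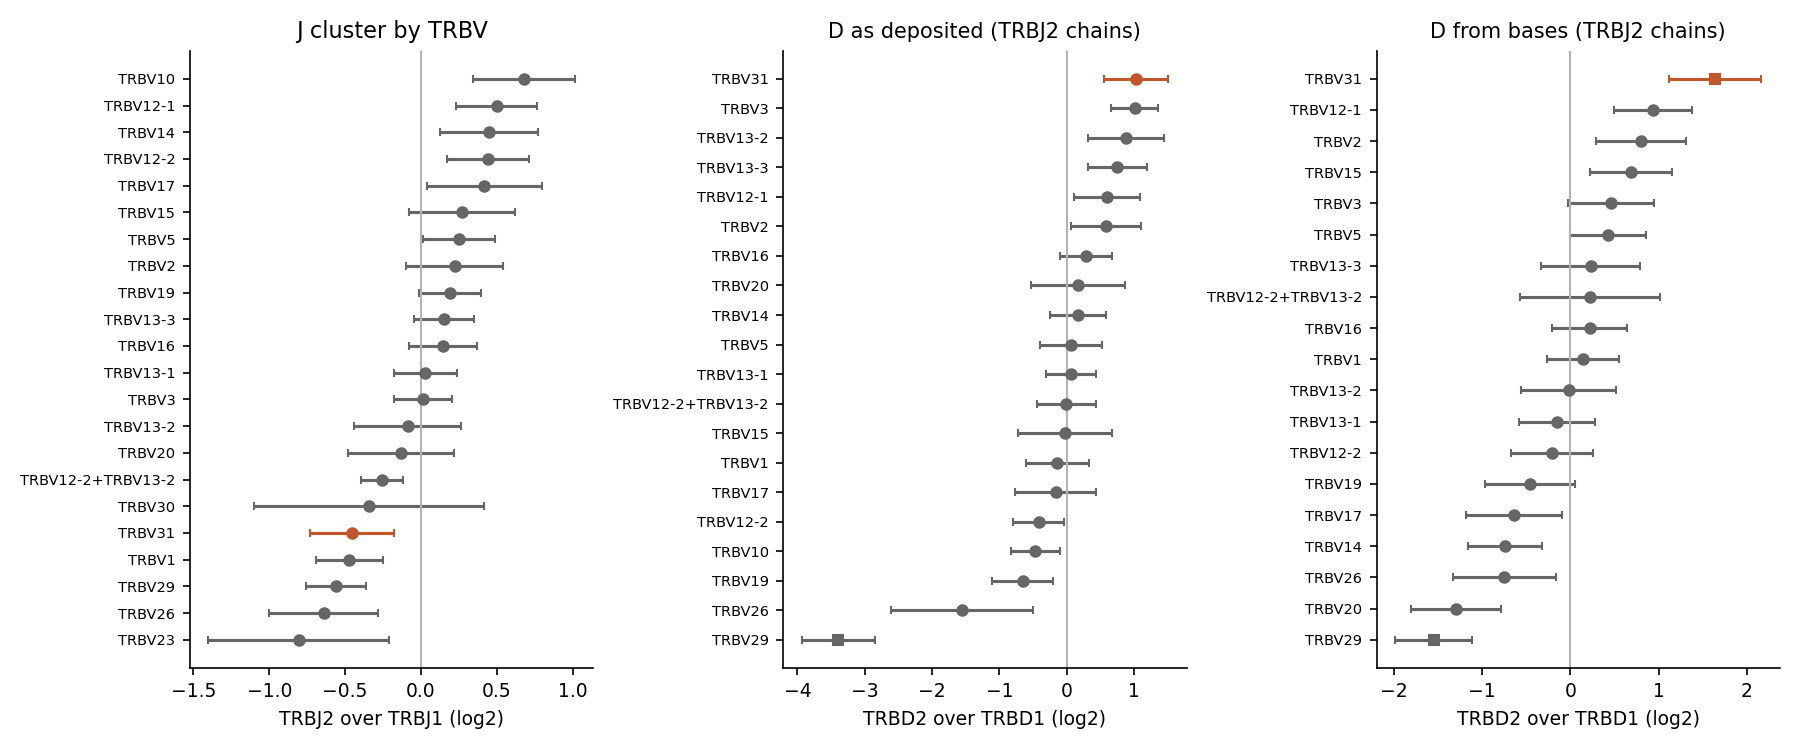
Log2 ratio from edgeR (x axis) for each TRBV (y axis) of TRBJ2 to TRBJ1 chains (left), and of TRBD2 to TRBD1 in TRBJ2 chains by deposited call (middle) and by junction bases (right). Points are estimates, bars 1 SE, squares pass the test and TRBV31 is in colour: it is at -0.46, 1.02 and 1.64, and passes in the right panel only.

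The TRBV31 V end was complete in a larger share of chains than that of 19 of the 20 other TRBV labels with a known germline end. Over the 4 libraries pooled, all 14 germline bases were kept in 68 of 165 TRBV31 chains (41.2%), against 24% of chains of these other labels. Single labels came close: TRBV5 had 39.9%, TRBV1 39.4% and TRBV12-1 39.0%, while TRBV2 was higher at 52.9%. By library the complete share was 39.6%, 32.0%, 27.8% and 57.1% for TRBV31, against 26.5%, 22.5%, 22.5% and 23.8%. It was higher for TRBV31 in 4 of 4 libraries, and 5xFAD;Cxcr6-/- library 2 stood highest. Each other library lay below the pooled 39.9% of TRBV5, and ranks within libraries were not taken.

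TRBV31 chains had lost 1.71, 2.44, 2.33 and 1.16 V bases on average, against 2.52, 2.62, 2.61 and 2.56 for the others. The weighted difference was -0.73 bases (SE 0.18, limma adjusted p = 2.97e-04). By library it was -0.81, -0.18, -0.27 and -1.39. The SE and p do not measure this spread alone, since limma takes the variance in part from the other TRBV. Segments differed widely here: limma called 81.0% of 21 TRBV, and TRBV5 at -0.75 and the label TRBV12-2+TRBV13-2 at -0.68 stood next to TRBV31. Without 5xFAD library 1 it was -0.70 (limma adjusted p = 0.119), and without 5xFAD;Cxcr6-/- library 2 it was -0.46 (limma adjusted p = 0.0444). An added base that equals the germline counts as kept, which depends on each segment's own end.

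The germline V end of TRBV31, with 14 bases, is among the shortest, and those of the other labels run from 14 to 17. V bases kept differed by -1.55 (SE 0.18, limma adjusted p = 1.86e-11), in a test that called 66.7% of 21 TRBV. A V end of 14 bases cannot keep more than 14. This value and its p thus depend on the length of the germline end and do not measure trimming alone. TRBV20 at -1.90 and TRBV14 at -0.84 were its neighbours. Only TRBV20 and TRBV30 (-2.52), whose V ends also have 14 bases, stood lower than TRBV31. The stretch between V and J averaged 10.1, 10.1, 12.2 and 9.76 bases with TRBV31 and 10.1, 9.79, 9.64 and 9.88 without it. That difference, 0.32 bases (SE 0.31, limma adjusted p = 0.507), did not pass a test that called 4.76% of TRBV. It rested on 5xFAD;Cxcr6-/- library 1, with 18 chains, and was 0.045 bases without that library.

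CDR3 length with TRBV31 did not pass the test against other TRBV. Mean length was 13.6, 13.5, 14.2 and 13.7 amino acids, against 14.04, 13.9, 13.8 and 13.9 for other TRBV. TRBV31 was shorter in 3 of 4 libraries and longer in 5xFAD;Cxcr6-/- library 1, which had 18 chains. The difference was -0.26 amino acids (SE 0.14, limma adjusted p = 0.114), and limma called 45.5% of 22 TRBV. Lengths of TRBV31 loops ran from 10 to 17, and those of 16 or more made up 9.09%, against 12.1% of other chains.

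**Figure D5:**
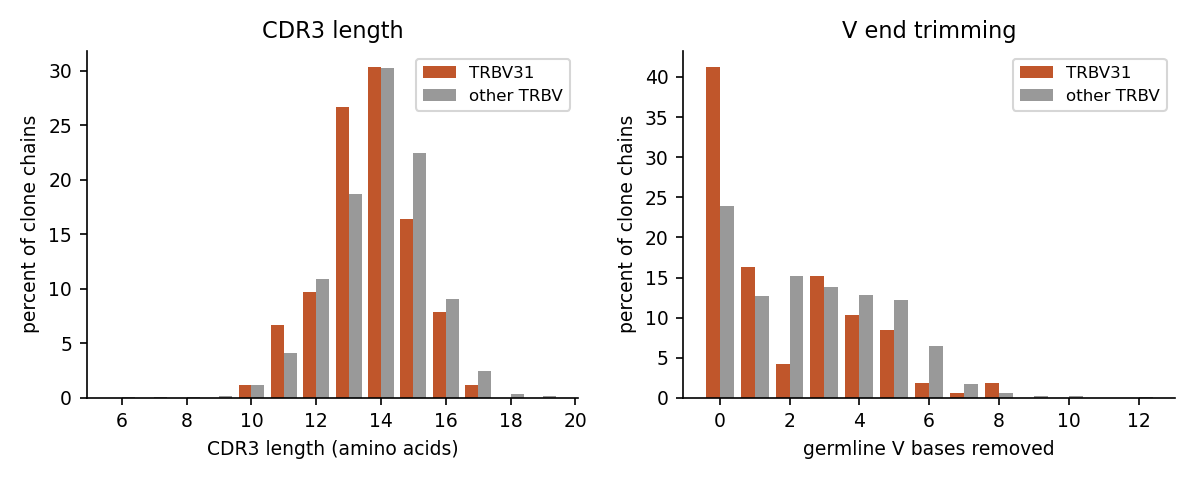
Distribution over clone chains (y axis, percent, 4 libraries pooled) of CDR3 length in amino acids (left) and of germline V bases removed (right), for TRBV31 and other TRBV. The bar at 0 bases removed reaches 41.2% for TRBV31 and 24% for other TRBV.

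TRBV31 contigs came with slightly fewer UMIs, the molecule tags that count transcripts. Median UMIs per contig were 6.0, 8.0, 9.5 and 9.5 with TRBV31 and 10.0, 9.0, 10.0 and 10.0 with other TRBV. Mean log2 UMIs differed by -0.58, -0.18, 0.01 and -0.10. The weighted difference was -0.25 (SE 0.11, limma adjusted p = 0.0359), in a test that called 59.1% of 22 TRBV, with TRBV23 at -0.26 and TRBV20 at -0.23 beside it. The call rested on few libraries: the adjusted p was 0.328 without 5xFAD library 1, 0.13 without 5xFAD library 2 and 0.0555 without 5xFAD;Cxcr6-/- library 1. In cells with 1 TRB and 1 or 2 TRA the difference was -0.13 (limma adjusted p = 0.312).

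Cells with 2 TRB held 24 of the 200 TRBV31 contigs, in 22 clones. Such barcodes can be 2 captured cells or 1 cell with both alleles in use, and these were not told apart. Per library 20.8%, 12%, 11.1% and 8.16% of TRBV31 chains were seen in such cells, against 11.6%, 10.6%, 7.86% and 8.96% of other chains. The share was higher with TRBV31 in 3 of 4 libraries. In 5xFAD library 2 it rested on 6 of 50 chains, counted per clonotype. Among these, clonotypes 148 and 363 had the same TRBV31 sequence, as did clonotypes 722 and 723. The small excess there was not recounted with each sequence taken once. The log2 ratio was 0.43 (SE 0.40, edgeR adjusted p = 0.603), between TRBV16 at 0.37 and TRBV5 at 0.49. The test called 0.0% of 22 TRBV, with 0 at an unadjusted p under 0.05 and 0 called by DESeq2. Without 5xFAD library 1 the ratio fell to 0.12.

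The partner chains of these cells used 15 TRBV labels. TRBV12-2+TRBV13-2, TRBV13-1, TRBV19 and TRBV5 were each the partner in 3 cells. These are counts of cells, not of clones. The 3 TRBV13-1 cells were all of clonotype 59 of 5xFAD library 2. Clonotypes 722 and 723 of that library, both with TRBV19, shared their TRBV31 chain. The TRBV31 chain had fewer UMIs than its partner in 17 of 24 cells and equal UMIs in 3, with medians of 6.0 and 10.0. All 24 cells also had an alpha chain, 17 with 1 and 7 with 2.

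Most TRBV31 clones were single cells. Clones of 2 or more cells numbered 5 of 48, 6 of 50, 0 of 18 and 6 of 49. These are 10.4%, 12%, 0.0% and 12.2%, where a count of 0 of 18 allows a share of up to 16.7% (3 counts of the total). Of other clones 11.4%, 16.9%, 12.5% and 10.1% were expanded. The log2 ratio of expanded to single clones was -0.35 for TRBV31 (SE 0.38, edgeR adjusted p = 0.723). The test called 1.97% of 152 segments, TRAV11, TRAJ18 and TRAJ49. The TRBV31 ratio was -0.22 without 5xFAD library 2, -0.16 without 5xFAD;Cxcr6-/- library 1 and -0.61 without 5xFAD;Cxcr6-/- library 2.

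The largest TRBV31 clone had 11 cells, whereas the largest clone of other TRBV had 254. It was clonotype 19 of 5xFAD library 2, with TRAV5-4 and TRAJ53. The largest in 5xFAD;Cxcr6-/- library 2 was clonotype 13, with 5 cells, TRAV7D-4 and TRAJ27. In 5xFAD library 1 clonotype 34 led with 4 cells, TRAV16 and TRAJ45. The 2 largest clones of each of these libraries are shown, and capitals mark bases between V and J. In 5xFAD;Cxcr6-/- library 2 clonotypes 26 and 28 tied at 3 cells, and the lower number is shown.

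5xFAD library 1, clonotype 34: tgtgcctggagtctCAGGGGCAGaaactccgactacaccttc
5xFAD library 1, clonotype 56: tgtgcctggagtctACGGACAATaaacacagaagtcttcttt
5xFAD library 2, clonotype 19: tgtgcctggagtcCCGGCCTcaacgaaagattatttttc
5xFAD library 2, clonotype 59: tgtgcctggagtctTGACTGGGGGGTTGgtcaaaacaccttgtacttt
5xFAD;Cxcr6-/- library 2, clonotype 13: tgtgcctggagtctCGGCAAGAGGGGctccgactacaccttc
5xFAD;Cxcr6-/- library 2, clonotype 26: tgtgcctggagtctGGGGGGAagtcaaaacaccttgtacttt

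Of these 6 chains, 5 kept the complete V end and clonotype 19 lacked its last base. Clonotype 59 had 4 cells, and each of the 3 with the TRBV31 chain also held a TRBV13-1 chain. In 5xFAD;Cxcr6-/- library 1 every TRBV31 clone was a single cell, so its clonotypes 77 and 81, first by number, are named only.

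TRBV31 clones paired with many alpha chains. An alpha chain was known for 142 of 165 clones, and these used 59 of the 88 TRAV labels and 41 of the 43 TRAJ labels seen in all. The most frequent by mean share were TRAV13-1 (10 clones), TRAV11 (7), TRAV7D-2 (7) and TRAV14-3 (5). Among TRAJ they were TRAJ22 (14 clones), TRAJ26 (10), TRAJ18 (11) and TRAJ34 (8). TRAV copies are near identical, so single TRAV names are uncertain. The edgeR test of TRBV31 clones against other clones called 0.0% of 118 alpha segments, with 2 at an unadjusted p under 0.05 and 0 called by DESeq2.

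TRAV11 joined to TRAJ18 is the alpha chain of invariant NKT cells, lipid-reactive T cells that usually use TRBV13-2, TRBV29 or TRBV1. Clones with this iNKT-like alpha were 4 of 44, 2 of 37, 1 of 16 and 0 of 45 TRBV31 clones. As shares these were 9.09%, 5.41%, 6.25% and 0.0%, against 20.7%, 13.4%, 5.05% and 2.63% of other clones. TRBV31 was lower in 3 of 4 libraries. In 5xFAD;Cxcr6-/- library 2 the count of 0 of 45 allows a share of up to 6.67% (3 counts of the total). That limit is above the 2.63% of other clones, so a difference was not detectable in that library. The log2 ratio was -1.24 for TRAV11 (SE 0.54) and -0.80 for TRAJ18 (SE 0.46), each with an edgeR adjusted p of 0.864. Without 5xFAD library 1 the TRAJ18 ratio was -0.35. Of the 7 iNKT-like TRBV31 cells, 2 also held a second TRB. In both it was TRBV12-2+TRBV13-2, a label that includes the usual partner TRBV13-2. It had 10 and 16 UMIs there, against 2 and 7 for the TRBV31 chain. In clonotypes 391 and 496 of 5xFAD library 2 the TRBV31 chain, the only TRB, had 1 and 2 UMIs. MAIT-like clones, with TRAV1 and TRAJ33, numbered 0 of 142 TRBV31 clones and 10 of 3459 others (0.289%). A count of 0 of 142 allows a share of up to 2.11% (3 counts of the total), so a difference from the others was not detectable.

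Several measures within TRBV31 chains were also set side by side by genotype, where no p can go below 0.333, and none is called different. Those given next were picked because their TRBV31 values did not overlap between the genotypes. The TRBV31 values of all other measures compared did overlap. The share of chains in cells with 2 TRB averaged 16.4% ± 6.25 in 5xFAD and 9.64% ± 2.08 in 5xFAD;Cxcr6-/- (SD over 2 libraries each). Other TRBV chains were likewise higher in both 5xFAD libraries (11.6% and 10.6%) than in both 5xFAD;Cxcr6-/- libraries (7.86% and 8.96%). The difference between TRBV31 and other chains overlapped between the genotypes (exact two-sided permutation p = 0.667). TRBD2 by junction bases averaged 92.3% ± 2.01 and 71.4% ± 20.2, and its difference from other chains overlapped too (exact p = 1.0). Mean CDR3 length was 13.6 ± 0.131 amino acids for 5xFAD libraries against 13.9 ± 0.363 for 5xFAD;Cxcr6-/- libraries, and as a difference from other chains it was -0.39 ± 0.00124 against 0.0658 ± 0.413 (exact p = 0.333). The iNKT-like share of TRBV31 clones overlapped between the genotypes, but its difference from other clones did not. That difference was -9.82 ± 2.61 percentage points in 5xFAD and -0.72 ± 2.71 in 5xFAD;Cxcr6-/- (exact two-sided permutation p = 0.333). The interaction of genotype with the 2-TRB ratio was -0.56 (SE 0.91, edgeR adjusted p = 0.992), and with TRBD2 by bases -1.74 (SE 1.09, edgeR adjusted p = 0.88).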

How the data were processed

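The members, segment lists and comparisons were chosen with earlier results of these data known. The deposited tables list contigs with UMI and read counts per contig and no normalization, per the file headers. The submitters' processing notes name Cell Ranger 6.0 with mm10, and the receptor reference is not given in the sources used here. The 4 libraries held 745 to 2438 cells with a TRB, 555 to 1489 clones with a TRB and 9835 to 25085 TRB UMIs. Libraries shared 28 barcodes in all, of which 0 carried TRBV31. Groups and replicate numbers came from the labels.

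Clones are deposited clonotypes. Counts of clones or clone chains were tested with edgeR 4.0.16 (quasi-likelihood, log total as offset, at least 10 counts), with DESeq2 1.42.0 as an alternative, and library means with limma 3.58.1 (weights, at least 3 chains in every library). P-values were adjusted by Benjamini-Hochberg at 0.05. The SE of an edgeR value is its size divided by the root of F. Germline ends came from GENCODE vM21 transcripts, for 21 of 22 TRBV labels. The tests of single TRBJ, V bases removed, bases between V and J and D by junction bases were chosen after seeing the data. The code was tested on simulated data. TRBV31, its TRBJ and TRBD, the 3 TRBV of nearest share, the 4 leading TRAV and TRAJ, the 2 largest clones per library and neighbours in each test were named by rule; the chains shown with their D bases were picked after their values were seen.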

Additional observations from a re-analysis of the deposited data

How the results depend on the processing

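The genotype difference of TRBV31 had no stable direction: without 5xFAD;Cxcr6-/- library 2 it was -0.13 (log2) in the edgeR test and -0.32 percentage points as a share of clones. Over the libraries left out in turn these ran from -0.13 to 0.42 and from -0.32 to 1.20, and an arm of 1 library was assumed to vary like the others. With the replicate number as a block the edgeR value was 0.23. The labels do not say that the numbers pair libraries, and same-numbered libraries deviated together with a correlation of 0.28 over 152 segments, in 2 pairs only. TRBJ2 against TRBJ1, the 2-TRB ratio, expansion, CDR3 length and the bases between V and J kept direction and side of the threshold in all alternatives run, but not size. TRBJ2 against TRBJ1 was -0.75 with cells counted, the 2-TRB ratio 0.20 with at least 3 UMIs per contig, and CDR3 length -0.16 without weights. Bases between V and J were 0.66 without weights and ran from 0.045 to 0.50 over the libraries left out. Expansion was -0.79 with TMM, -0.55 at 3 or more cells and -0.13 in cells with 1 TRB and 1 or 2 TRA.

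With D read from the junction bases the TRBD2 ratio passed the threshold at 1.64. That reading then lost the call with DESeq2 (1.68) and in cells with 1 TRB and 1 or 2 TRA (1.37), and ran from 1.16 to 2.45 over the libraries left out. UMIs per contig lost the call in those cells (-0.13) and without weights (-0.21), with a range of -0.31 to -0.12 over libraries. V bases removed ran from -0.97 to -0.46. TMM scaling called 2 alpha segments, TRAJ18 at -1.82 and TRAV11 at -2.26, while it moved the median of all alpha segments by -0.99. In expansion TMM moved it by -0.44, in the D calls by -0.28, in genotype use by -0.16, in the J cluster by -0.12 and in D by bases by 0.11. DESeq2 called 0 segments where edgeR called 2 for genotype, 3 for expansion and 2 for D by bases. The cause of these changes was not tested. 5xFAD;Cxcr6-/- library 1 gave 18 TRBV31 chains, the fewest.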

Other observations

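Where the TRBV31 V end was complete, the next 2 bases were its palindrome in 27 of 68 chains, bases of the kind that arise when the hairpin at a V end is opened off centre. This held in 11 of 19, 8 of 16, 2 of 5 and 6 of 28 such chains in the 4 libraries. In 5xFAD;Cxcr6-/- library 2, which had the most complete V ends, the share was the lowest, at 21.4% (95% Clopper-Pearson interval 8.30 to 41.0). Other TRBV with a complete end had the palindrome of their own last 2 bases in 21.5%, 24.4%, 22.5% and 21.5% of chains. Added bases give such matches by chance at a rate that depends on the segment's end, and no test was made.

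Of the TRBV31 CDR3 nucleotide sequences, 3 occurred in 2 clonotypes of the same library. In 5xFAD library 2, clonotypes 148 and 363 shared a chain and the alpha segments TRAV13N-1 and TRAJ22, and clonotypes 722 and 723 shared a chain with TRAV13-1 and TRAJ26. In 5xFAD;Cxcr6-/- library 2, clonotypes 324 and 334 had the same TRBV31 chain with different alpha segments.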
